A study of Mus musculus with 4 samples.

Results

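The IL-6 family comprises cytokines whose receptors share the signaling subunit gp130. The 10 genes described here were chosen by name and not by a rule on their values, but with earlier results of these data known. They are the ligands Il6, Il11, Lif, Osm, Il27 and Clcf1, and the receptor genes Il6ra, Il6st, Osmr and Lifr. They were covered by 12 of the 39429 probes of a whole mouse genome array, 1 probe each except Lifr with 3, and stand against 20828 genes that could be named on the array. RNA came from BALF cells, which are those obtained by lavage of the airways and alveoli. Both groups received intraperitoneal bleomycin at 0.035 U/g on a repeated schedule, bleomycin being a DNA-damaging drug used to induce lung fibrosis in mice. According to the sample records, cells were taken on day 22. One group consisted of wild-type littermates and the other of S1pr2-/- mice, which carry a targeted disruption of the S1P receptor gene S1pr2 in every cell. Both were young adults from heterozygous matings on a mixed strain background that had been crossed back to C57BL/6J a single time. There were 4 one-color arrays, 2 per genotype, and none from saline-administered mice. The records call the tissue alveolar macrophages, while the protocol describes unsorted BALF cells, and it was not stated whether an array held RNA of a single mouse or of a pool, or whether the 2 arrays of a genotype, which the methods describe as independent RNA samples, came from separate mice. The p-values therefore measure the spread between these arrays only. The design asks whether the loss of S1pr2 changes gene expression in the airspace cells of bleomycin-administered mice.

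Some ligands of this family, such as IL-6 and IL-11, first bind a receptor of their own and then bring in gp130, the product of Il6st. The signaling chains are gp130 alone or gp130 with a partner such as the LIF receptor or the oncostatin M receptor. Janus kinases bound to these chains phosphorylate STAT3, and SOCS3, made in response to STAT3, shuts the signal down. In the lung, macrophages are a source of IL-6 and oncostatin M, and IL-6, IL-11 and oncostatin M have been studied as mediators of inflammation and fibrosis.

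Levels are given as the processed intensity of a probe divided by the 75th percentile of its array, so that 1 stands for a probe at that percentile, which lay between 2489 and 2817 intensity units. Differences are on the log2 scale, as S1pr2-/- minus wild-type. Levels of different probes were not compared, since each probe has its own brightness per molecule. The scanner software flagged 67.6% to 72.2% of probes as well above background, and 27161 probes were tested with limma. A probe was called when its unadjusted p was under 0.05 and its change over 1.5-fold, which is the rule of the study's methods. Across all tested probes, 1.62% were called lower and 0.486% higher on the arrays labelled S1pr2-/-, while 0% passed an adjusted p of 0.05, although 2601 had an unadjusted p under 0.05. An exact two-sided permutation test of 2 arrays against 2 cannot give a p below 0.333, so precision is limited by the array number. The targeted gene went against its label: the S1pr2 probe read 0.915 and 0.896 in wild-type and 6.35 and 5.83 on those labelled S1pr2-/-, which was 6.72-fold higher (log2 difference 2.75, standard error 0.072, limma adjusted p = 0.333). Whether this probe lies within the disrupted part of the gene was not tested, and every direction below rests on the labels. Of 8 listed marker genes of the labelled cell type, alveolar macrophages, 7 had a probe. All 8 probes of these genes were well above background on every array. So were all 10 probes of the listed T cell genes and all 8 of the listed epithelial genes. Detection therefore does not separate the labelled cell type from others.

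All 12 probes of the IL-6 family were well above background on all 4 arrays, so every member was tested in both groups. Il6 was the 1 probe called, lower on the arrays labelled S1pr2-/- (8.33% of the 12, against 1.62% of all tested probes). None was called higher (0, against 0.486% of all tested probes). On 4 of the 12 probes (33.3%), those of Il6, Osm, Clcf1 and Osmr, both arrays labelled S1pr2-/- read below both wild-type arrays, against 21.8% of all tested probes, and on 0 of the 12 did both read above, against 20.0%. On the other 8 the groups overlapped. The median log2 difference was -0.12 over the 12 probes and -0.003 over all tested probes. Adjusted p-values of the 12 ranged from 0.509 to 0.998 in limma, so that none passed the adjusted threshold.

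**Figure D1:**
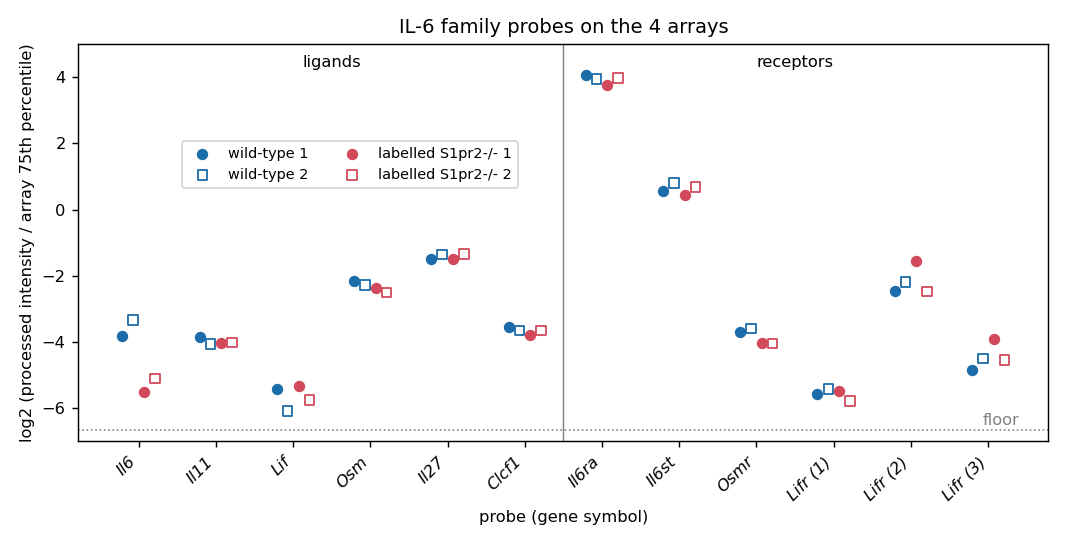
Level of each IL-6 family probe on each array, as log2 of the processed intensity over the array's 75th percentile. Blue marks wild-type and red marks the arrays labelled S1pr2-/-, filled circles replicate 1 and open squares replicate 2, and the dotted line is the floor of 0.01. The groups stand apart for Il6, from 0.0711 to 0.0990 against 0.0219 to 0.0292, and lie close together or overlap for the other 11 probes. Heights should be compared within a probe and not between probes.

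Il6 encodes interleukin-6, the founding ligand of the family and an inducer of the acute phase response. Its probe (A_55_P1997756) read 0.0711 and 0.0990 in wild-type against 0.0219 and 0.0292 on the arrays labelled S1pr2-/-. The groups did not overlap, and the lower wild-type array stood well above the higher of the other pair. The wild-type arrays had a mean log2 level of -3.58 ± 0.34 (SD, n = 2). Those labelled S1pr2-/- had one of -5.30 ± 0.29 (SD, n = 2). The level was 3.32-fold lower on the latter (95% interval 1.96 to 5.63), a log2 difference of -1.73 with a standard error of 0.251. The unadjusted p of limma was 0.00469 and the adjusted p was 0.509. The processed intensities behind these ratios were 182 and 246 in wild-type and 61.8 and 75.1 in the other group. The median pixel signal of the dimmer spots was 126 and 130 against local backgrounds of 25 and 27, so the probe was dim but not at background. Under normexp, another background correction, the difference was smaller, 2.18-fold. When arrays were scaled to the percentile over probes detected on all of them, the log2 difference was -1.60. There Il6 was at the floor on replicate 1 of the arrays labelled S1pr2-/-, so the floor set part of that value.

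The RefSeq promoter table (assembly GRCm38.p6) held an entry for 7 of the 10 members, 9 promoters in all. The 250 bases before the start of Il6 are shown because it was the called member. Those of Osmr are shown because it was the other member with an unadjusted p under 0.05, and those of Lif because they share a motif with Il6 although the groups overlapped on its probe. The motifs searched on both strands were TTCNNNGAA, bound by STAT factors, TGANTCA, bound by AP-1, and GGNNTTTCC, bound by NF-kB and read as GGAAANNCC on the other strand. Capitals mark matches, and positions count back from the base before the start. The sequence of Il6 lies at chr5:30012864-30013113 on the plus strand, that of Lif at chr11:4257318-4257567 on the plus strand and that of Osmr at chr15:6874314-6874563 on the minus strand.
Il6: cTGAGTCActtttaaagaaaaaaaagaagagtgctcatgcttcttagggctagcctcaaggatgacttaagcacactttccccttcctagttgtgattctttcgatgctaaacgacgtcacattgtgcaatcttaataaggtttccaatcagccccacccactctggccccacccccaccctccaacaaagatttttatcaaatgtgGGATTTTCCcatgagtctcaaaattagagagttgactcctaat
Lif: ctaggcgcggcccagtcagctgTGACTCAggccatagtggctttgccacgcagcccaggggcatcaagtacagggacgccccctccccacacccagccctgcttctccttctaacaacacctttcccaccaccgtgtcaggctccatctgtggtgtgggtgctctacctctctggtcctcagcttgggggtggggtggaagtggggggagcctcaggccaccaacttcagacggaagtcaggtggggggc
Osmr: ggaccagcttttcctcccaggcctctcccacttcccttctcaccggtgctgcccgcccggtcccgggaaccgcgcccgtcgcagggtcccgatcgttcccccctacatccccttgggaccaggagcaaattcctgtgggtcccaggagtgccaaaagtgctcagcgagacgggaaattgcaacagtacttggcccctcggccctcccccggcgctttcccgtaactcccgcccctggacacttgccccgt
The Il6 sequence held an AP-1 motif that began at position -249 and an NF-kB motif that began at -43. The Lif sequence held an AP-1 motif at -228, and the Osmr sequence held none of the motifs. Among the 9 member promoters the AP-1 motif was found in 3, namely those of Il6, Lif and 1 of the 2 of Il11, the NF-kB motif in that of Il6 alone, and the STAT motif in 0. Over all 32851 promoters of the table, 6.749% held the AP-1 motif, 4.928% the NF-kB motif and 7.02% the STAT motif. These matches describe letters in a window and are not evidence of binding.

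The other ligands differed little between the groups. Osm encodes oncostatin M, a macrophage and neutrophil product that acts on the oncostatin M receptor. Its probe read 0.224 and 0.205 in wild-type and 0.194 and 0.176 on the arrays labelled S1pr2-/-. The groups did not overlap, with a log2 difference of -0.22 (standard error 0.091, 95% interval -0.495 to 0.059, limma adjusted p = 0.552). Clcf1 encodes a cytokine that signals through the CNTF receptor. Its probe read 0.0858 and 0.0793 in wild-type and 0.0728 and 0.0793 in the other group, where the last value lay below the lower wild-type value by less than the printed digits show. The log2 difference was -0.12 (95% interval -0.375 to 0.137).

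On the probes of the remaining ligands the groups overlapped. Il11, whose product acts through the IL-11 receptor on stromal cells among others, read 0.0690 and 0.0602 in wild-type and 0.0608 and 0.0620 on the arrays labelled S1pr2-/-. The log2 difference of -0.07 had a 95% interval of -0.357 to 0.216, which leaves out a change of 1.5-fold (0.585 on the log2 scale) in either direction. Il27, which encodes the subunit that pairs with the product of Ebi3 in interleukin-27, read 0.352 and 0.391 against 0.352 and 0.394. Its interval of -0.299 to 0.312 also leaves out a change of that size, as do those of Osm and Clcf1. Lif, the leukemia inhibitory factor gene, had a dim probe that read 0.0234 and 0.0147 against 0.0248 and 0.0186. Its interval of -0.730 to 1.16 was wide enough to hold a change over 1.5-fold in both directions.

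Of the receptor genes, 0 of 6 probes were called, against 1.62% lower and 0.486% higher of all tested probes. Osmr, which encodes the receptor chain that pairs with gp130 to bind oncostatin M, read 0.0766 and 0.0827 in wild-type and 0.0617 and 0.0606 on the arrays labelled S1pr2-/- (probe A_51_P319460). The groups did not overlap, and the arrays within each group lay close together. The level was 1.30-fold lower on the arrays labelled S1pr2-/-, short of the 1.5-fold rule, with a log2 difference of -0.38 (standard error 0.070, 95% interval -0.591 to -0.169). Limma gave an unadjusted p of 0.00952 and an adjusted p of 0.509. The unadjusted p rose to 0.0556 under quantile normalization and to 0.0546 without replicate 2 of the arrays labelled S1pr2-/-, with the direction kept.

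Il6ra encodes the binding chain of the IL-6 receptor, which leukocytes and hepatocytes carry on their surface and can shed. Its probe read 16.8 and 15.4 in wild-type and 13.6 and 15.6 on the arrays labelled S1pr2-/-, and the groups overlapped. The log2 difference was -0.14 with a 95% interval of -0.463 to 0.183. Il6st, which encodes gp130, read 1.48 and 1.75 against 1.35 and 1.60 and overlapped as well, with a difference of -0.13 (95% interval -0.564 to 0.304). For both chains that bind IL-6, the intervals thus leave out a change of 1.5-fold, whereas that of Il6 itself (-2.49 to -0.967) lies wholly beyond it.

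Lifr encodes the receptor chain for leukemia inhibitory factor, which also takes part in the receptors of other ligands of the family. Its first probe (A_51_P113182) read 0.0210 and 0.0235 in wild-type and 0.0224 and 0.0183 on the arrays labelled S1pr2-/-. Its second (A_55_P2159259) read 0.181 and 0.219 against 0.344 and 0.179. The third probe (A_55_P2159264), assigned to another RefSeq transcript of the gene than the first pair, read 0.0345 and 0.0444 against 0.0672 and 0.0427. The groups overlapped on all 3, and the last 2 probes were highest on replicate 1 of the arrays labelled S1pr2-/-. The log2 differences were -0.13, 0.32 and 0.45, so the probes did not share a direction, and each standard error was at least 0.141. The second difference rested on 1 array: it was 0.79 and passed the call rule without replicate 2 of the arrays labelled S1pr2-/-, and it was -0.15 without replicate 1. In the RefSeq order of genes, Osmr and Lifr lie on chromosome 15 with 0 protein-coding genes between them, and Osm and Lif are next to each other on chromosome 11. In each pair the groups stood apart for 1 gene and overlapped for its neighbor. Of all tested probes, the groups stood apart on 21.8% with the arrays labelled S1pr2-/- below and on 20.0% with them above, so such a split is common.

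**Figure D2:**
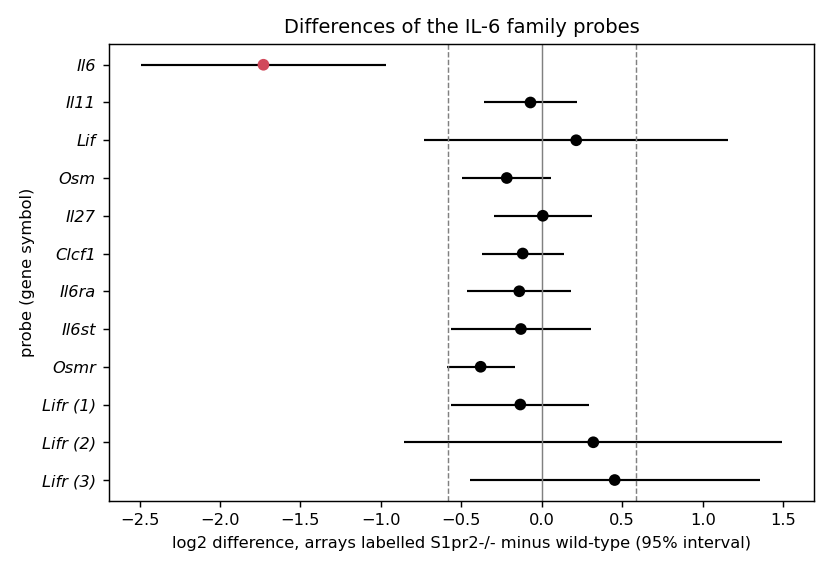
Log2 difference of each IL-6 family probe, arrays labelled S1pr2-/- minus wild-type, with its 95% interval from limma as a bar. Dashed lines mark 1.5-fold in either direction and red marks the called probe. Il6 lies at -1.73 with an interval wholly beyond the dashed line, Osmr at -0.38 with an interval that leaves out 0 but reaches the line, and the other 10 intervals contain 0.

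**Figure D3:**
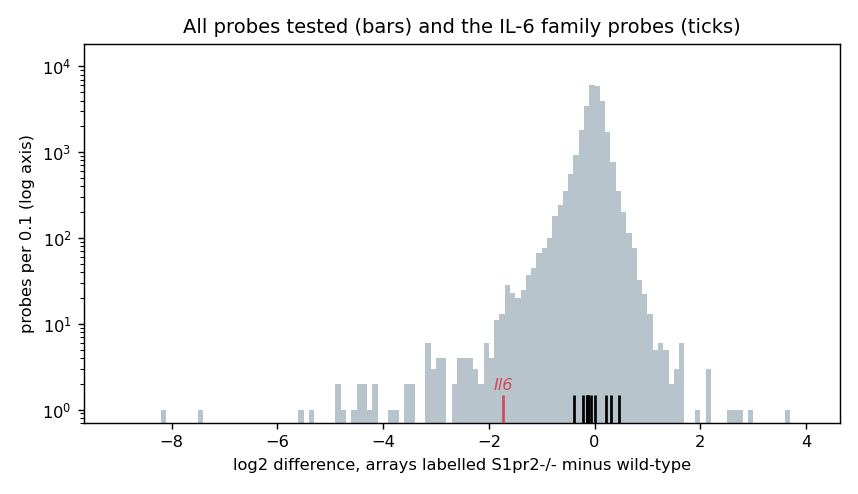
Number of tested probes by log2 difference in steps of 0.1 (bars, logarithmic vertical axis), with the 12 IL-6 family probes as ticks at the foot. Il6 lies in the left tail, among the 1.62% called lower, and the other ticks lie within the central mass between -0.38 and 0.45.

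Further genes of the pathway were read from lists of 42 genes, of which 40 had a tested probe (50 probes). Of these probes 2 were called lower, those of Socs1 and Il31ra, and 0 higher, against 1.62% and 0.486% of all tested probes. Both arrays labelled S1pr2-/- read below both wild-type arrays on 22 of 50 (44%) and above on 4 of 50 (8%), against 21.8% and 20.0% of all tested probes. The median log2 difference was -0.08 over the 50 probes.

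Among the other ligands and their partners, 0 of 6 tested probes were called and the median difference was -0.03. Ctf1, the gene of cardiotrophin-1, gave 0.23, and Ctf2 gave 0.09. The probes of Cntf, the gene of ciliary neurotrophic factor, gave -0.22 and -0.11. Ebi3, named here as the partner of Il27 and not by size, gave 0.02. The Il31 probe was at the floor throughout.

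Among the other receptors and the proteases that shed the IL-6 receptor, 1 of 6 tested probes was called, lower (16.7%, against 1.62% of all tested probes). Il31ra encodes the receptor of interleukin-31, which pairs with the oncostatin M receptor rather than with gp130. Its tested probe read 0.0259 and 0.0371 in wild-type and 0.0198 and 0.0141 on the arrays labelled S1pr2-/-. The log2 difference was -0.89 (standard error 0.283, limma unadjusted p = 0.0456, adjusted p = 0.519), and the groups did not overlap. With an array left out the difference ranged from -1.15 to -0.63, over 1.5-fold each time, and the unadjusted p lay above 0.05 in these smaller fits, where the lone array of a group is assumed to vary like the others. The Il31ra difference was smaller under some scalings, at -0.51 (under 1.5-fold) with normexp and -0.25 with the percentile over probes detected on all arrays. It was not called with either of these, nor with quantile normalization (-0.78). The call was also lost with no filter on dim probes, the methods' t-test or a replicate block. A further probe of this gene was at the floor throughout. The probes of the protease gene Adam17 gave 0.16 and 0.09, that of Adam10 gave 0.07, that of Il27ra gave -0.07 and that of Il11ra1 gave 0.02. The Cntfr probe was not well above background anywhere, so its level here has only an upper bound.

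The gp130 signaling list held genes that carry the signal and also inhibitors of it, namely Socs1, Socs3, Ptpn2 and Pias3. Its counts and median therefore do not give a direction for the signal. Both arrays labelled S1pr2-/- read below both wild-type arrays on 10 of 17 probes (58.8%, against 21.8% of all tested probes) and above on 1 of 17 (5.88%, against 20.0%), and the median difference was -0.19. Socs1, an inhibitor of Janus kinases that cytokines induce, read 1.54 and 3.01 in wild-type and 0.701 and 0.594 on the arrays labelled S1pr2-/-. The groups did not overlap, although the gap within wild-type was nearly as large as that between the nearest arrays of the 2 groups. Socs1 was 3.34-fold lower, with a log2 difference of -1.74 (standard error 0.392, limma unadjusted p = 0.0176, adjusted p = 0.509). Without replicate 1 or 2 of the arrays labelled S1pr2-/- the difference was about as large, -1.86 and -1.62, but the call was lost, the spread then being taken from the wild-type arrays alone. Socs3, the feedback inhibitor of gp130 itself, read 12.7 and 9.86 against 8.51 and 6.78. These did not overlap, but the difference of -0.56 did not pass the call rule (limma unadjusted p = 0.0605, adjusted p = 0.534). Ptpn2, a phosphatase of Janus kinases and STATs, had 3 probes with differences of -0.47, -0.25 and -0.17, each without overlap. The first of them read 0.141 and 0.141 against 0.102 and 0.101, with an unadjusted p of 0.00215 and an adjusted p of 0.509 in limma. Jak2 gave -0.39, and the probes of Stat3 gave -0.36 and -0.19. The groups overlapped on the first of these Stat3 probes, whose difference rested on 1 array: it was 0.03 without replicate 2 of the arrays labelled S1pr2-/- and -0.75 without replicate 1. The 1 probe on which both arrays labelled S1pr2-/- were higher was that of the adaptor Gab1, at 0.20, and the probe of Pias3 was at the floor on every array. The latter was well above background on the 2 arrays labelled S1pr2-/- and on 0 wild-type arrays, so that it entered the test through the former alone, and it was called higher, at 0.66, without a floor and in the authors' table, which has none (both named after their values were seen).

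Among 18 genes listed as STAT3 targets, 0 of 22 probes were called, against 1.62% lower and 0.486% higher of all tested probes. Both arrays labelled S1pr2-/- were lower on 10 of 22 probes (45.5%, against 21.8% of all tested probes) and higher on 2 of 22 (9.09%, against 20.0%), both of the survival gene Bcl2l1, and the median was -0.09. Timp1, an inhibitor of metalloproteinases, gave -0.92 (standard error 0.329, limma unadjusted p = 0.0612, adjusted p = 0.534). It leaned on 1 array, at -1.33 without replicate 1 of the arrays labelled S1pr2-/- and -0.51 without replicate 2, and was called lower with normexp, with the authors' table, without a floor and among probes well above background on every array. The IL-1 receptor antagonist gene Il1rn gave -0.50, and the probes of Fosl2 gave -0.35 and -0.06. Socs3 is on this list too. The kinase gene Pim1, at -0.32, was the only target that passed the unadjusted threshold (limma unadjusted p = 0.0459, adjusted p = 0.519). Pim1 and Bcl2l1 were named after their values were seen.

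**Figure D4:**
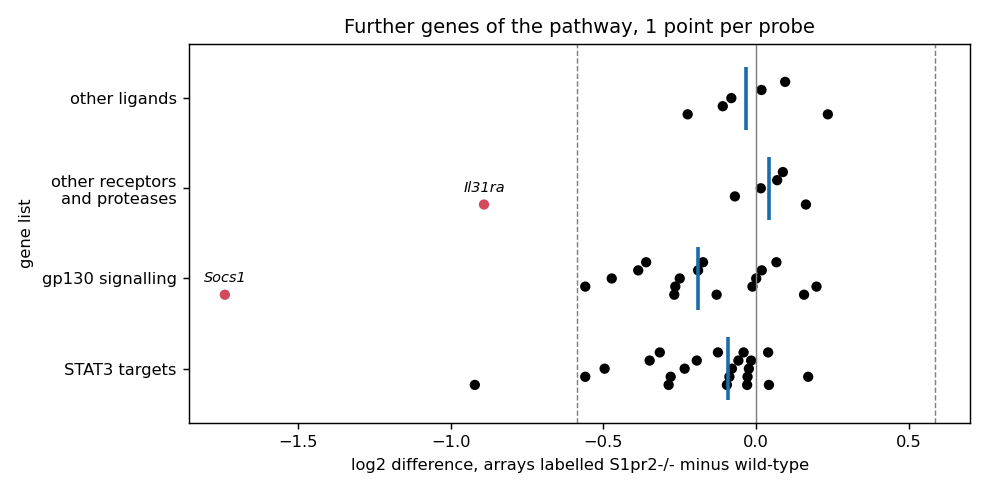
Log2 difference, arrays labelled S1pr2-/- minus wild-type, of every tested probe of the 4 further gene lists of the pathway. Each point is a probe, the blue bar is the list's median, the dashed lines mark 1.5-fold and red marks the 2 called probes, Socs1 at -1.74 and Il31ra at -0.89. The median of the gp130 signaling genes lies at -0.19 and those of the other lists between -0.09 and 0.04.

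In bulk RNA such as this, fewer cells of a type and less RNA per cell cannot be told apart. The markers of several cell types differed between the groups too. Calls in each marker list below stand against 1.62% lower and 0.486% higher of all tested probes. The summed level of the 7 eosinophil markers was 6.05 and 14.6 in wild-type against 2.36 and 3.69 on the arrays labelled S1pr2-/-. Such sums weigh bright probes most, and Ear6, the tested marker that was not called, made up most of the latter. Of the 6 tested, 5 were called lower, from 13.3-fold for Il5ra to 48.0-fold for Gata1, and the list's median log2 difference was -4.50. Epx was at the floor on 1 array labelled S1pr2-/-. Prg3, which was not tested, was at the floor on both of these arrays and on wild-type replicate 1. On wild-type replicate 2 it read 0.0103, next to the floor of 0.01. The order of the 4 arrays by this sum, wild-type 2, wild-type 1, S1pr2-/- 2 and S1pr2-/- 1, was also the order of the arrays by Il6, and the part of these markers in the Il6 difference was not tested. The 8 T cell markers summed to 17.5 and 19.0 against 15.6 and 11.5, with 2 of 10 probes called lower, and the neutrophil markers to 79.6 and 76.3 against 69.2 and 62.6, with 1 of 8 called lower and Ngp at the floor. Csf3r made up most of the neutrophil sum, and S100a8 (0.25), Ltf (0.36) and 1 Camp probe (0.03) had positive differences. Both sums were lower on the arrays labelled S1pr2-/-, as were Osm, Osmr and Socs1, and their part in those differences was not tested either. The alveolar macrophage markers summed to 498 and 546 against 480 and 546, with 0 of 8 called. The monocyte-derived macrophage markers summed to 114 and 48.1 against 122 and 78.0, with 1 of 10 called, higher, and Apoe alone, at 71.4 and 13.3 in wild-type, carried much of that sum. Both arrays labelled S1pr2-/- lay above both wild-type arrays on 4 of these 10 probes (40%, against 20.0% of all tested probes). They lay below on 1 (10%, against 21.8%). In the T cell list both lay below on 7 of 10 probes (70%), and in the neutrophil list on 4 of 8 (50%). Both lay above on 0 probes of either list.

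Fibroblast markers summed to 0.270 and 0.265 in wild-type and to 0.669 and 0.363 on the arrays labelled S1pr2-/-, with 1 of 5 tested called, Dcn, higher, and Lum at the floor. Replicate 1 of the arrays labelled S1pr2-/-, where the last 2 Lifr probes were highest, was the array with the highest sum. On replicate 2 the fibroblast sum also lay above both wild-type arrays, whereas the first and second Lifr probes were at their lowest. The part of these markers in the Lifr values was not tested. Epithelial markers summed to 29.6 and 33.1 against 24.0 and 39.9 and overlapped between the groups, with 0 of 8 called. Scgb1a1, at 28.2, made up most of the sum on replicate 2 of the arrays labelled S1pr2-/-. Both arrays labelled S1pr2-/- lay below both wild-type arrays on 5 of these 8 probes (62.5%, against 21.8% of all tested probes). Both lay above on 0, and the list's median log2 difference was -0.34. The part of these markers in the Osmr difference was not tested. Of the other lists, those of B cells, NK cells, dendritic cells, endothelial cells and of mast cells and basophils together held 0 called probes. Fcer1a, Mcpt8 and Ms4a2 of mast cells and basophils and Cldn5 and Tek of endothelial cells had no probe well above background.

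**Figure D5:**
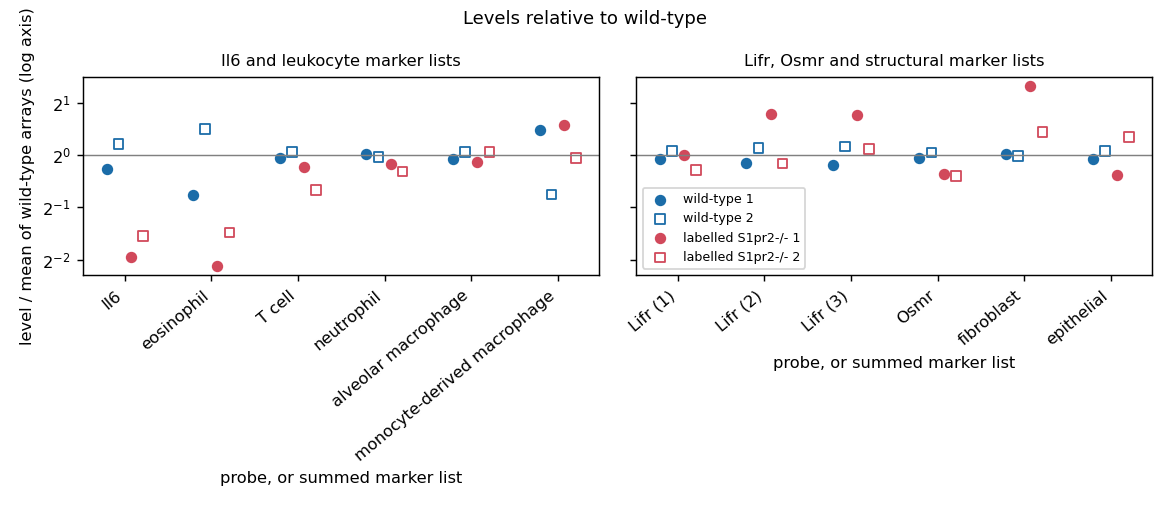
Levels on the 4 arrays relative to the mean of the wild-type arrays (logarithmic axis), for Il6 beside summed leukocyte markers (left) and for Lifr and Osmr beside summed fibroblast and epithelial markers (right). Il6 and the eosinophil sum share their order over the arrays, but with both lower on both arrays labelled S1pr2-/-, only the order within each group was left to match. The alveolar macrophage sum, at 498 and 546 against 480 and 546, stays near 1. The fibroblast sum and the last 2 Lifr probes are highest on the same array.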

How the data were processed

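Cy3-labeled cRNA of BALF cells from bleomycin-administered mice was hybridized to 4 one-color arrays, which shared 1 slide and 1 scan, so slide and scan could not be tested as batches. The authors deposited the intensity of every spot as Agilent Feature Extraction wrote it, with that software's own correction already in the processed signal, and with its flags. The processed signal was not the median pixel signal less the local background. On wild-type replicate 1 the Il6 probe had a processed signal of 182, a median of 246 and a local background of 25. The submitters' processing notes name version 10.7.3.1 of that software and the scanner headers 11.0.1.1. The authors also deposited a table of their normalized log2 values, used only as an alternative. The files pair no probe with a gene: matching accessions with a RefSeq table of GRCm38.p6 gave a gene for 27421 of 39429 probes (69.5%). The array design may rest on another build, so coordinates are given only for RefSeq promoters.

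From these files, spots with an outlier flag (115 to 273 per array) were left out, none was saturated (0), spots of a probe were averaged, each intensity was scaled to its array's 75th percentile, a floor of 0.01 was set and log2 was taken. The 27161 probes well above background on both arrays of either genotype were fitted with limma 3.58.1 (lmFit, eBayes) in R 4.3.3 on all 4 arrays with Benjamini-Hochberg adjustment, in code tested on simulated data. A probe was called at an unadjusted p under 0.05 with over 1.5-fold change. Wild-type arrays differed from each other by 0.209 on average over these probes (absolute log2 difference), and the arrays labelled S1pr2-/- by 0.199.

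All probes of the 10 members are reported. Of the other lists, called genes and up to 4 further genes with the largest differences are named, and exceptions are marked; some genes of these lists are counted but not reported here by name. The members, lists and alternatives were chosen with earlier results of these data known. Of the marker genes, Siglec5, Ly6c2, Ly6g and Tpsab1 had no uniquely named probe and were not analysed here. The alternatives were other normalizations (quantile, cyclic loess, the percentile over detected probes), normexp with an offset of 50 on the median signal (a mean signal was not among the columns used here), the authors' table, no floor, other filters, a trended variance, flagged spots kept, a replicate block, the methods' t-test, each array left out and other call rules.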

Additional observations from a re-analysis of the deposited data

How the results depend on the processing

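Il6 was called lower under all 16 alternatives, which moved its log2 difference between -1.97 and -1.13 and its adjusted p between 0.333 and 0.682; at an adjusted p under 0.05 the calls were 0 for the members, the pathway lists and all probes in both directions. Member calls higher were 0 to 1 when arrays were left out, the 1 being a Lifr probe without replicate 2 of the arrays labelled S1pr2-/-. Pathway calls lower (2) became 1 with quantile normalization, the percentile over detected probes or no filter, 0 with the methods' t-test and 0 to 3 with an array left out, and those higher (0) became 1 with the authors' table or no floor. Calls lower over all probes (440) became 202 with the percentile over detected probes, 244 without a filter, 152 with the methods' t-test, 982 by fold alone and 341 to 729 with an array left out. Calls higher (132) became 210 with quantile normalization, 63 with the percentile over detected probes, 73 with normexp, 237 with the authors' table, 238 with no floor, 58 with the methods' t-test, 311 by fold alone and 153 to 351 with an array left out.

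Counts of probes whose groups did not overlap were recomputed after the data were seen. The share above over all tested probes (20.0%) moved as well, between 17.3% with normexp and 26.5% with quantile normalization. With an array left out that share was 30.8% to 37.5%. Member probes above stayed 0 under other scalings and were 1 to 3 with an array left out, and gp130 signaling probes above (1) became 2 with the authors' table or no floor and 2 to 3 with an array left out, where fewer arrays are compared. Differences of members that changed sign were those of Il11 (0.035 with quantile normalization, -0.169 to 0.028 with an array left out), Lif (-0.032 with normexp, 0 where all 4 arrays were at the floor with the percentile over detected probes, -0.121 to 0.548 with an array left out), Il27 (-0.0055 with cyclic loess, -0.0735 to 0.0858 with an array left out), the first Lifr probe (0 at the floor with the percentile over detected probes, -0.281 to 0.0136 with an array left out) and the second (-0.151 to 0.791 with an array left out). The causes were not tested. Same-numbered arrays shared only a number (correlation of deviations 0.187 over 2 pairs), and with the replicate block the pathway calls lower were 1 while Il6 remained called.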
